A study of Mus musculus with 16 samples.

Results

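The thin filament genes of heart muscle were examined in the chromatin of adult cardiomyocytes with and without the intermediate filament protein desmin. Their members were 7 genes chosen by symbol, Actc1, Tnnt2, Tnni3, Tnnc1, Tpm1, Lmod2 and Tnni1, of 11472 genes that had a peak in any list. A peak belonged to a gene if the deposited annotation assigned it to that symbol, which it does by the nearest annotated transcription start. Peaks of H3K27Ac (acetylation of histone H3 on lysine 27), the acetyl mark that active promoters and enhancers carry, were found at 6 of the 7 genes, 59 peaks over 4 lists. Peaks of lamin A/C, proteins of the nuclear lamina, were found at 5 of the 7, with 10 peaks in all.

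Cardiomyocytes were isolated by enzymatic perfusion of the hearts of 3-month-old mice that carried desmin (Des+/+) or lacked it (Des-/-, desmin null), either unstressed (basal) or after swimming exercise (swim). By the study's methods both genotypes shared a strain background and were homozygous for a GFP transgene under the promoter of alpha-myosin heavy chain, which is active in heart muscle cells. Each of the 8 combinations of genotype, condition and antibody had 1 library from pooled mice and its own input library, 16 samples in all, so the spread between replicates is unknown and no difference below has a test. Intervals are 95% intervals for counting error only, exact Poisson for a height and Wilson for a share. In bulk chromatin, a lower share of a cell type and less acetylation per cell cannot be told apart.

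The thin filament of the sarcomere is a strand of actin that carries tropomyosin and the troponin complex. At rest tropomyosin covers the sites where myosin binds. When calcium binds troponin C, the troponin complex moves tropomyosin aside and myosin can pull. Leiomodin adds actin to the pointed ends of the filament and helps to set its length. Actc1 encodes cardiac alpha-actin, Tpm1 encodes alpha-tropomyosin, Tnnc1 encodes the calcium-binding troponin C of heart and slow muscle, Tnni3 encodes the inhibitory troponin I of the adult heart, Tnnt2 encodes cardiac troponin T, which ties the complex to tropomyosin, and Lmod2 encodes the cardiac leiomodin. Tnni1 encodes slow skeletal troponin I, which the fetal heart uses before Tnni3 replaces it.

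The genes lie on different chromosomes except Tnnt2 and Tnni1, which share chromosome 1. In the GENCODE annotation of GRCm38 (mm10), Actc1 runs from 114047282 to 114053548 on chromosome 2 (minus strand), Tnnt2 from 135836354 to 135852260 on chromosome 1 (plus strand), Tnni3 from 4518305 to 4524229 on chromosome 7 (minus strand) and Tnnc1 from 31208312 to 31211729 on chromosome 14 (plus strand). Tpm1 runs from 67022590 to 67049406 on chromosome 9 (minus strand), Lmod2 from 24597762 to 24605414 on chromosome 6 (plus strand) and Tnni1 from 135779434 to 135810989 on chromosome 1 (plus strand). Tnnc1 lies inside the interval of Nisch, on the opposite strand, and ChIP-seq reads do not tell the strands apart.

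The promoters shown here are 1 whose cover by H3K27Ac peaks differed most between lists (Actc1), 2 that lay beside peaks (Tnnt2 and Tnnc1) and 1 with no peak near it (Tnni1). Each is the 250 bases before the RefSeq start site (GRCm38.p6), read 5' to 3' on the strand of the gene. The Actc1 stretch (chr2:114052876-114053125, minus strand) was under a peak in both basal lists and in neither swim list. The Tnnt2 stretch (chr1:135836084-135836333, plus strand) lay beside peaks but not under them, Tnnc1 (chr14:31208062-31208311, plus strand) bordered a peak, and Tnni1 (chr1:135799171-135799420, plus strand) had no peak in any list. Capitals mark matches to a CArG box (Actc1), to CATTCC or its reverse complement, the M-CAT motif (Tnnt2 and Tnnc1), and to GATAA or its reverse complement (Tnnt2).
Actc1: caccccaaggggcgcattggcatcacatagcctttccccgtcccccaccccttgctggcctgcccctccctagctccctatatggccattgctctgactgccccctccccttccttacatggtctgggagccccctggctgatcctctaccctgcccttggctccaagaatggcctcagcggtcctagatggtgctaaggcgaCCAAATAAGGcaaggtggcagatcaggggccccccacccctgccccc
Tnnt2: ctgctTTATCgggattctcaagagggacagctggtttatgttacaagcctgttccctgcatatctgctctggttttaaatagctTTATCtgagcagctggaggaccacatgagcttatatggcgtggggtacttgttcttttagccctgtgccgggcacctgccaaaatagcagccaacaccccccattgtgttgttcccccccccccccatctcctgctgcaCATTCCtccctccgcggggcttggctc
Tnnc1: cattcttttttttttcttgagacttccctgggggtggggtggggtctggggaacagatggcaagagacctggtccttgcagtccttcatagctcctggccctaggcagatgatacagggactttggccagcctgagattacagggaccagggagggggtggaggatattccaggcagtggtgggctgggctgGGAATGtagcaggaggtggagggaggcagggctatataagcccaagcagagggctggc
Tnni1: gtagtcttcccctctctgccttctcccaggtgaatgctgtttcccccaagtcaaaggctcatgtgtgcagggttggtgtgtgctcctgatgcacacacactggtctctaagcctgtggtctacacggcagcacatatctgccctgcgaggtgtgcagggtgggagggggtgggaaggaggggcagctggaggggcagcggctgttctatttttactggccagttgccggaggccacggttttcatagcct

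Motifs were searched on both strands in the 250 bases before and 50 bases after the start, over 27025 promoters. A CArG box, the site of serum response factor, was found at bases -47 to -38 of Actc1 and in 1.57% of all promoters. Actc1 also held TATAAA, at bases 34 to 39, as did 14.2% of all promoters. The M-CAT motif CATTCC was found in Tnnt2, Tnnc1 and Tpm1 and in 14.6% of all promoters. GATAA was found in Tnnt2 at 2 places before the start and in Tnni3 after it, against 25.8% of all promoters. No member had a MEF2 site, which 0.566% of all promoters had. No motif searched overlapped another.

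Those 300-base windows were covered unevenly by H3K27Ac peaks. The Actc1 window was under a peak over 300 of 300 bases in basal Des+/+ and in basal Des-/- and over 0 in both swim lists. For Lmod2 the covered bases were 272 in basal Des+/+, 300 in basal Des-/-, 45 in swim Des+/+ and 66 in swim Des-/-. The Tpm1 window had 159, 229, 50 and 32 covered bases in that order. Cover of the Tnni3 window was 34 and 71 bases in the basal lists and 0 in the swim lists, and that of Tnnc1 was 15, 63, 14 and 0 bases. The Tnnt2 window was never covered, although peaks on either side lay within 1000 bp of it in both Des+/+ lists. Over all promoters, 27.8%, 29.5%, 20% and 20% of windows met a peak in basal Des+/+, basal Des-/-, swim Des+/+ and swim Des-/-.

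The lists themselves held 15757 H3K27Ac peaks in basal Des+/+, 16638 in basal Des-/-, 11157 in swim Des+/+ and 10407 in swim Des-/-. The height of a peak is the number of overlapping reads, with a minimum of 15, and its input height is the same signal without precipitation. Median height was 23.0 reads in every list but swim Des+/+, where it was 20. Des itself, the deleted gene, had a highest peak of 30, 46, 24 and 37 reads in these lists, which does not check its deletion. The swim Des-/- list stood apart in its input, with a mean input height of 5.48 reads under its peaks against 2.80 to 3.06 in the others. Under the thin filament peaks the input was 1 to 6 reads in swim Des-/- and 1 to 5 reads over the other lists. Read totals per library were not analysed here, so depth is known only through the heights.

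Of these peaks, 18 were assigned to the thin filament genes in basal Des+/+, 16 in basal Des-/-, 17 in swim Des+/+ and 8 in swim Des-/-. Counting instead the peaks that overlap a gene or the 3000 bp before its start gave 18, 16, 17 and 12. This count takes in peaks assigned to the neighbouring genes Nisch and C130080G10Rik, which made up the rise in swim Des-/-, and drops distal peaks of Lmod2. The lengths below use the assigned peaks. Their summed width, called the acetylated length here, was 27005 bp, 24343 bp, 18793 bp and 5467 bp in the same order. The first 3 lists each had a peak at 6 genes and swim Des-/- at 5. After swimming stress the ratio of Des-/- to Des+/+ in acetylated length was 0.291, while over all peaks of these lists it was 0.956. In basal conditions the ratio of Des-/- to Des+/+ was 0.901 against 1.07 over all peaks. From basal to swim the ratio was 0.696 in Des+/+ (0.636 over all peaks) and 0.225 in Des-/- (0.568 over all peaks).

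Most of the peaks lay near a start. Within 3000 bp of an annotated start were 83.3% of the peaks in basal Des+/+ (60.8 to 94.2%, n = 18 peaks), 75.0% in basal Des-/- (50.5 to 89.8%, n = 16), 76.5% in swim Des+/+ (52.7 to 90.4%, n = 17) and 87.5% in swim Des-/- (52.9 to 97.8%, n = 8). All peaks of these lists had promoter shares of 71.5%, 71.2%, 74.4% and 77.3%, inside each interval.

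**Figure D1:**
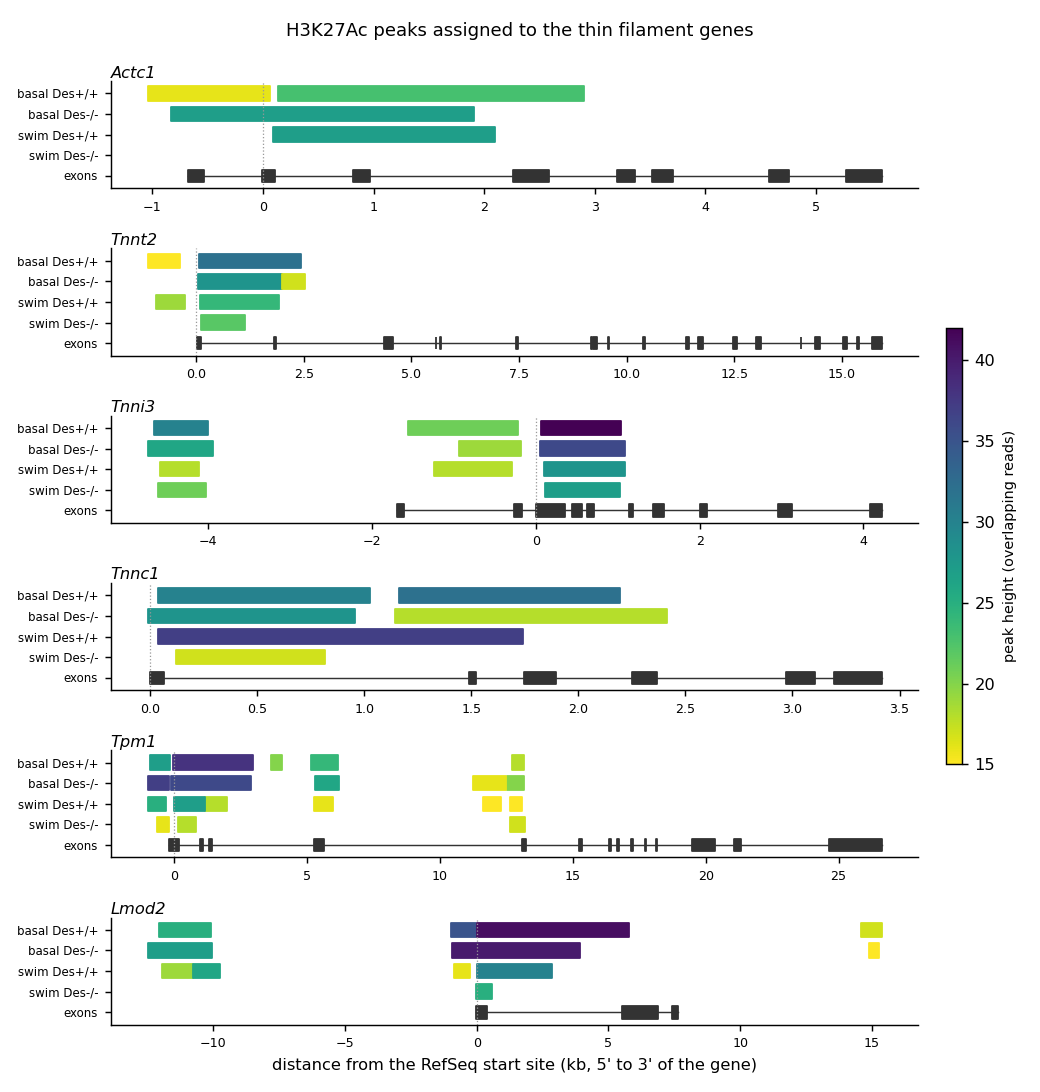
Position of each H3K27Ac peak along 6 thin filament genes, in kb from the RefSeq start site (dotted line), with 1 row per library, exons in dark grey and colour for peak height in overlapping reads from 15 to 42. The swim Des-/- row is empty at Actc1 and holds 1 short peak of 597 bp at Lmod2, where the basal Des+/+ row holds 4.

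Cardiac alpha-actin, the filament itself, had no listed H3K27Ac peak in swim Des-/-. The highest Actc1 peak had 23 reads in basal Des+/+ (interval 14.6 to 34.5), 27 in basal Des-/- (17.8 to 39.3) and 27 in swim Des+/+ (17.8 to 39.3). These heights do not differ beyond their intervals. The acetylated length was 3880 bp in 2 peaks, 2735 bp in 1 peak, 2010 bp in 1 peak and 0 bp. A missing peak means that no stretch reached 15 reads or passed the authors' false discovery rate, not that acetylation was absent, so no fold is given. The next gene upstream, C130080G10Rik, kept peaks just beyond the Actc1 start in every list, of 24 and 15 reads in basal Des+/+, 19 in basal Des-/-, 23 in swim Des+/+ and 17 and 17 in swim Des-/-. The share of all genes with a peak in swim Des+/+ and none in swim Des-/- was 17.6%, and 32.3% of genes with a peak in basal Des-/- had none in swim Des-/-.

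Alpha-tropomyosin had the most peaks, 5 in basal Des+/+, 5 in basal Des-/-, 6 in swim Des+/+ and 3 in swim Des-/-. They lay at the first start, in the 5' introns and near an internal start of the gene, which makes several isoforms. Its highest peak had 38 reads in basal Des+/+ (26.9 to 52.2), 37 in basal Des-/- (26.1 to 51.0), 27 in swim Des+/+ (17.8 to 39.3) and 18 in swim Des-/- (10.7 to 28.4). Both swim libraries were below both basal ones, and swim Des-/- was the lowest. The highest peak was at the first start except in basal Des-/-, where it was upstream of it. The first-start peak had 38 reads in basal Des+/+ and 36 in basal Des-/-, and the upstream peak 27 and 37. Acetylated length was 5555 bp, 6619 bp, 4500 bp and 1648 bp. The broad peak over the first start, up to 3003 bp wide in basal Des-/-, was 682 bp wide in swim Des-/-. The peak at the internal start, between 5161 and 6185 bp downstream, had 24, 26 and 16 reads in basal Des+/+, basal Des-/- and swim Des+/+ and was not listed in swim Des-/-. A smaller one between 12534 and 13189 bp downstream, at an exon, was in all 4 lists with 18, 20, 15 and 17 reads. These last heights lay close to the minimum and do not differ beyond counting error.

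**Figure D2:**
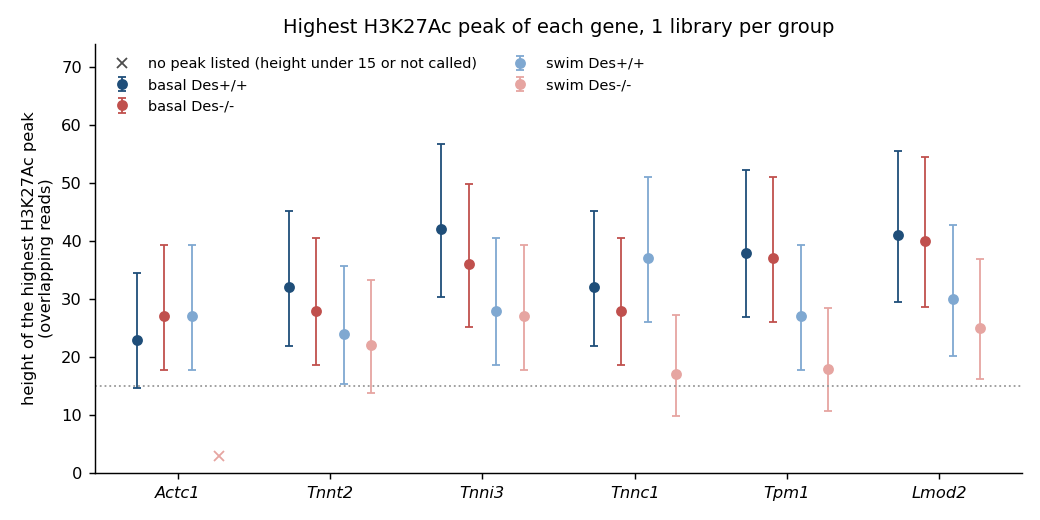
Height of the highest H3K27Ac peak of each gene in overlapping reads, with exact 95% Poisson intervals, 1 point per library. The dotted line is the minimum height of 15 reads and a cross marks Actc1 in swim Des-/-, which had no listed peak. Intervals overlap within every gene, and swim Des-/- is the lowest point of all 5 genes that had a peak there.

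Of the troponins, troponin C differed most in height between the swim libraries. The highest Tnnc1 peak had 32 reads in basal Des+/+ (21.9 to 45.2), 28 in basal Des-/- (18.6 to 40.5), 37 in swim Des+/+ (26.1 to 51.0) and 17 in swim Des-/- (9.90 to 27.2). The swim Des+/+ library was the highest of the 4 and swim Des-/- the lowest. The highest peak was not at the same site in both basal lists. The peak at the start had 30 reads in basal Des+/+ and 28 in basal Des-/-, and the one downstream had 32 and 18. The peaks covered 2024 bp, 2242 bp, 1705 bp and 695 bp. In swim Des-/- the peak ran from 119 to 813 bp past the start and overlapped no exon of the gene. At the neighbouring Nisch peak, less than 3000 bp away, the highest reads were 43, 34, 28 and 21 in that order. That neighbour was therefore also lowest in swim Des-/-, and its input there was 4 to 6 reads.

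Troponin I of the adult heart had the smallest difference in length between the swim libraries among the 5 genes compared. The highest Tnni3 peak, just after the RefSeq start and covering the exons next to it, had 42 reads in basal Des+/+ (30.3 to 56.8), 36 in basal Des-/- (25.2 to 49.8), 28 in swim Des+/+ (18.6 to 40.5) and 27 in swim Des-/- (17.8 to 39.3). It was 983, 1031, 987 and 911 bp wide, so neither height nor width set the genotypes apart after swimming. Another peak, from -1557 to -180 bp of the start, had 21, 19 and 18 reads in the first 3 lists and was not listed in swim Des-/-. The farthest, from -4742 to -3940 bp and within the gene Dnaaf3, had 30, 26, 18 and 21 reads. Summed, Tnni3 had 2979 bp, 2590 bp, 2408 bp and 1508 bp.

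Troponin T was covered mainly by a peak that began at the first exon. The highest Tnnt2 peak had 32 reads in basal Des+/+ (21.9 to 45.2), 28 in basal Des-/- (18.6 to 40.5), 24 in swim Des+/+ (15.4 to 35.7) and 22 in swim Des-/- (13.8 to 33.3). All intervals overlapped. An upstream peak, from -1132 to -273 bp of the start, was listed in Des+/+ only, with 15 reads in basal and 19 in swim, both near the minimum. Acetylated length was 3131 bp, 2448 bp, 2518 bp and 1019 bp.

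Leiomodin 2, the length regulator of the pointed end, had the longest acetylation of the members in 3 of the 4 lists and the largest difference in length. Its highest peak had 41 reads in basal Des+/+ (29.4 to 55.6), 40 in basal Des-/- (28.6 to 54.5), 30 in swim Des+/+ (20.2 to 42.8) and 25 in swim Des-/- (16.2 to 36.9). The intervals overlapped, with the basal libraries above the swim ones. In length Lmod2 had 9436 bp, 7709 bp, 5652 bp and 597 bp. Among all genes with a peak these lengths were at percentiles 98.8, 97.9, 97.2 and 18.8. The 597 bp of swim Des-/- were a single peak over the start, with 25 reads and an input of 2. The region from -12487 to -9724 bp of the start, annotated as distal intergenic, had 25, 27 and 26 reads in the first 3 lists and no listed peak in swim Des-/-. Another, 14594 to 15369 bp downstream of the start, was listed in the basal lists only, with 17 reads in Des+/+ and 15 in Des-/-.

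Slow skeletal troponin I had no listed H3K27Ac peak in any of the 4 lists and no lamin A/C peak. Tnni1 thus differed from the other 6 members, each of which had a peak in at least 3 H3K27Ac lists. Skeletal genes of the same families, Tnnt1, Tnnt3, Tnni2, Tnnc2, Tpm2 and Acta1, were likewise without a listed peak. Lmod3, a leiomodin of striated muscle, went the other way, with a highest peak of 24 reads in basal Des+/+ and 17 in basal Des-/-. Only 20% to 29.5% of all promoter windows met a peak, so a gene without one is common.

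**Figure D3:**
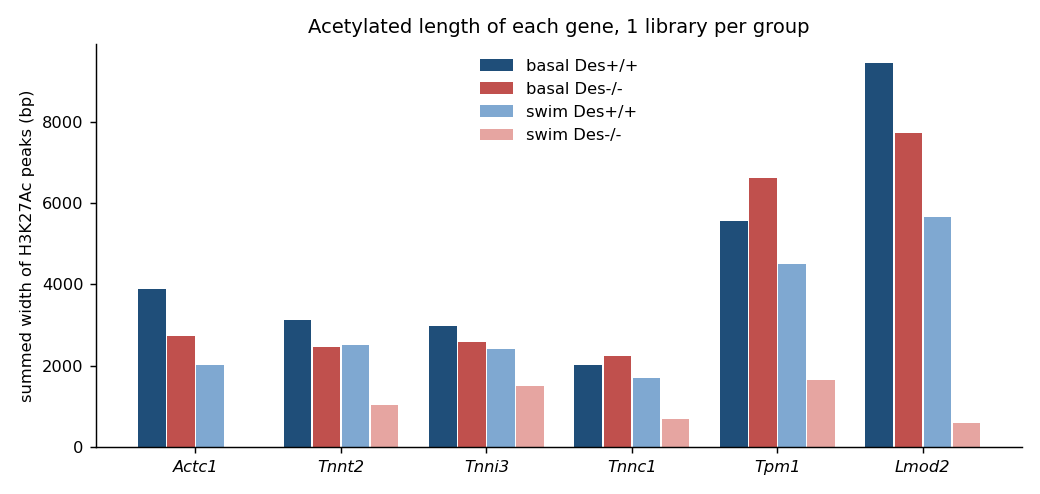
Summed width of the H3K27Ac peaks of each gene in bp, 1 bar per library. Lmod2 has the tallest bar, 9436 bp in basal Des+/+, and the swim Des-/- bar is the shortest of every gene, with none at Actc1.

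To set these values against the libraries as a whole, each ratio between lists was divided by the median ratio over all genes with a peak in both. Those medians were 1.07 for height and 1.05 for length in Des-/- against Des+/+ in basal conditions, and 1.12 and 1.02 after swim. In swim against basal they were 0.714 and 0.761 in Des+/+ and 0.737 and 0.741 in Des-/-. On the log2 scale the shift of all heights was 0.10 in the basal comparison of genotypes, 0.16 in that of swim, -0.49 from basal to swim in Des+/+ and -0.44 in Des-/-. A gene is called higher or lower here where its scaled ratio passed 1.5-fold, which is a rule of size and not a test. The highest peaks of a gene in the compared lists need not be at the same site. The 4 comparisons share libraries in pairs, so their values are not independent.

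In basal conditions 0 of 6 thin filament genes passed 1.5-fold in height, where 3.03% of 8773 genes were higher in Des-/- and 3.02% lower. Scaled height ratios ran from 0.799 for Tnni3 to 1.09 for Actc1, with a median of 0.862. In acetylated length also 0 of 6 passed, against 11.8% of genes higher and 9.76% lower. The lowest ratio was 0.670 for Actc1, just inside the limit, and the highest was 1.13 for Tpm1, with a median of 0.802. With a minimum height of 20 reads 2 of 6 were lower in length.

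After swimming stress all 5 genes that could be compared were below 1 in Des-/- against Des+/+, in height and in length. In height 2 of 5 were called lower, Tnnc1 with a scaled ratio of 0.410 (interval 0.217 to 0.747) and Tpm1 with 0.595 (0.309 to 1.12), and 0 higher. The background was 4.17% lower and 3.34% higher among 5904 genes. The interval of Tpm1 includes 1, and that of Tnnc1 does not. Tpm1 was inside the limit at 0.667 unscaled and at 0.696 with input subtracted, which left Tnnc1 alone. Lmod2 followed with 0.744 (0.420 to 1.31), then Tnnt2 with 0.818 (0.438 to 1.52) and Tnni3 with 0.861 (0.488 to 1.52), none of which differed beyond counting error.

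In acetylated length 5 of 5 were called lower after swimming stress and 0 higher, where 14.4% of genes were lower and 13.8% higher. Lmod2 had the lowest ratio, 0.103, followed by Tpm1 with 0.358, Tnnt2 with 0.396, Tnnc1 with 0.399 and Tnni3 with 0.613. The median of the 5 was 0.396. With a minimum height of 20 reads only 3 genes could still be compared and 2 of them were lower. Length has no counting interval, and where heights are near 15 reads it depends strongly on that minimum.

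From basal to swim in Des+/+, 2 of 6 genes were called higher in scaled height, Actc1 with 1.64 (0.907 to 3.00) and Tnnc1 with 1.62 (0.981 to 2.68), and 0 lower. The background was 4.22% higher and 2.95% lower of 6844 genes. Both intervals include 1, and unscaled the 2 ratios were 1.17 and 1.16, under the limit. In length 0 of 6 were called, against 8.61% of genes higher and 18.9% lower, with ratios from 0.681 for Actc1 to 1.11 for Tnnc1. With a minimum height of 20 reads 3 of 6 were lower in length.

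In Des-/- the same comparison gave 1 of 5 genes lower in height, Tpm1 with 0.660 (0.354 to 1.19), and 0 higher, beside 2.97% lower and 4.39% higher of 6739 genes. With input subtracted its ratio was 0.727, inside the limit. In length 4 of 5 were lower and 0 higher, beside 20.9% and 7.60% of genes. These were Lmod2 with 0.104, Tpm1 with 0.336, Tnnc1 with 0.418 and Tnnt2 with 0.561, while Tnni3 had 0.785. With a minimum height of 20 reads only 3 genes could still be compared and 1 of them was lower. The share of all genes at that minimum was not computed.

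**Figure D4:**
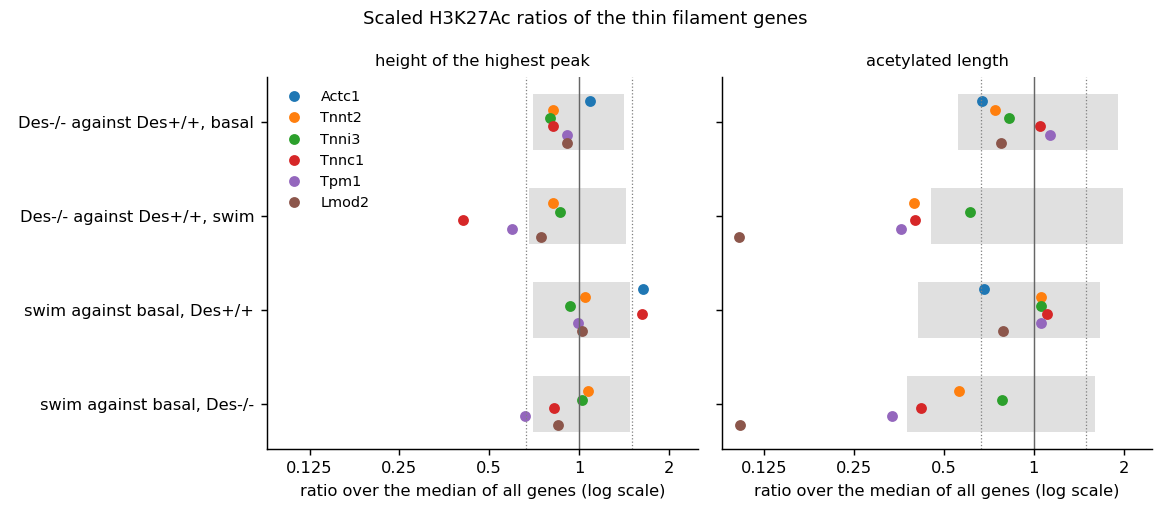
Scaled ratios of 6 thin filament genes for the height of the highest peak (left) and the acetylated length (right), on a log scale, with 1 row per comparison. Grey bars span the 5th to 95th percentile of all genes, dotted lines mark 1.5-fold, and Actc1 is absent where swim Des-/- is compared. In Des-/- against Des+/+ after swim, all 5 length ratios are left of the dotted line at 1.5-fold lower.

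Overlap between the lists was compared next. A peak with no overlap in the other list is called unpartnered. In basal conditions 1 of 16 peaks (6.25%) was unpartnered in Des-/- and 2 of 18 (11.1%) in Des+/+, against 19.7% and 14.5% of all peaks. After swimming stress 9 of 17 Des+/+ peaks (52.9%) had no partner in Des-/-, against 27% of all swim Des+/+ peaks, and 0 of 8 Des-/- peaks had none in Des+/+, against 22.2%. The 9 peaks were 3 at Lmod2, 3 at Tpm1 and 1 each at Actc1, Tnni3 and Tnnt2, with heights of 15 to 27 reads. When only peaks above the larger of the median heights were counted, 2 were left. Fewer peaks entered that count, and the share over all peaks at that setting was not computed.

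Across conditions in Des+/+, 3 of 18 basal peaks (16.7%) were unpartnered in swim and 1 of 17 swim peaks (5.88%) in basal, against 39.0% and 8.39% of all peaks. In Des-/-, 8 of 16 basal peaks (50%) had no partner in swim and 0 of 8 swim peaks had none in basal, against 44.8% and 6.28%. With equal numbers of the highest peaks, 10 basal Des-/- peaks remained and 3 of them had no partner. The share over all peaks at that setting was not computed. With all listed peaks, those of Des+/+ were left without a swim partner at a lower share than the background. Those of Des-/- were left at a share close to it.

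Merging overlapping peaks of the 4 lists gave 16 thin filament regions of 18277. In all 4 lists were 8 regions (50%, against 37.7% of all regions). In every list but swim Des-/- were 4 (25.0%, against 8.63%). They were the merged region around the Actc1 start, the upstream regions of Lmod2 and Tnni3 and the internal start of Tpm1. In swim Des+/+ the Actc1 peak ran from 90 to 2099 bp past the start and did not cover the start itself. In every list but swim Des+/+ were 0, against 6.40%. Of 13 regions present in both basal lists, 12 (92.3%) had a peak in swim Des+/+, against 70.3% of all such regions, and 8 (61.5%) had one in swim Des-/-, against 67.0%. The 4 regions missing from swim Des-/- alone had 16 to 27 reads in the other lists, against the minimum of 15.

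Marker genes of heart cell types were read beside these values. Of 11 cardiomyocyte markers, which include Tnni3 and Tnnt2, 11 had an H3K27Ac peak in each of the first 3 lists and 8 in swim Des-/-, where Myl2, Actn2 and Ckm had none. Their acetylated length was 58260 bp in basal Des+/+, 49866 bp in basal Des-/-, 44876 bp in swim Des+/+ and 12300 bp in swim Des-/-. The marker list as a whole was therefore shortest in the same library as the thin filament genes. Of 9 endothelial markers 8, 8, 7 and 6 had a peak, with 47427, 42461, 32683 and 33968 bp and a highest peak of 83, 64, 51 and 54 reads. Vwf had none in any list, and Cdh5 had none in the swim lists. Fibroblast markers had peaks at 1, 4, 0 and 0 of 10 genes, leukocyte markers at 1, 1, 0 and 1 of 9, skeletal muscle markers at 1, 1, 0 and 0 of 9, and smooth muscle and pericyte markers at 0 of 8 in every list. The part of cell makeup and of the higher input of swim Des-/- in the lower thin filament values was not tested.

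A list of 31 other genes was mostly of the thin filament and its anchors, but held Mybpc3 (a myosin-binding protein) and Tnni3k (a kinase). Of them 19, 18, 14 and 11 had an H3K27Ac peak in basal Des+/+, basal Des-/-, swim Des+/+ and swim Des-/-. The peaks numbered 49, 52, 39 and 22. The highest were at genes that all cells use. Actb, cytoplasmic beta-actin, had 119, 122, 91 and 105 reads, Tpm3, a widely used tropomyosin, had 94, 91, 58 and 78, and Capzb, the beta subunit of the barbed-end capping protein, had 83, 73, 56 and 51. These 3 genes thus had 51 reads or more in swim Des-/-, where no member had over 27. They were above every member in the other lists too. In basal Des+/+ they had 83 reads or more, where no member had over 42.

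Of the 18 that could be compared in basal conditions, 2 were lower in Des-/- and 0 higher in scaled height, against 3.02% and 3.03% of all genes. Mybpc3, the cardiac myosin-binding protein C, had a ratio of 0.611 (0.324 to 1.13) and Lmod3, a leiomodin of striated muscle, had 0.660 (0.333 to 1.28), and both intervals include 1. Tnni3k, a cardiac kinase that binds troponin I, had a peak of 19 reads in Des+/+ only, as 6.97% of all genes with a basal Des+/+ peak had none in basal Des-/-. The median of the 18 was 0.885.

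After swimming stress 3 of 11 were lower in Des-/- and 0 higher, against 4.17% and 3.34% of all genes. They were Nrap, an actin anchor of growing myofibrils, with 0.510 (0.258 to 0.976), Tmod1, the tropomodulin that caps pointed ends in the heart, with 0.582 (0.283 to 1.17), and Cfl2, the muscle cofilin, with 0.617 (0.397 to 0.950). Actn2, the Z-disc alpha-actinin (24 reads), Fhod3, a cardiac formin (22 reads), and Mybpc3 (15 reads) had a peak in swim Des+/+ and none in swim Des-/-, 3 of 14 genes against 17.6% of all genes. None of the 31 had one in swim Des-/- only. The median of the 11 was 0.827.

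Of 14 such genes in Des+/+, 2 were higher in swim than in basal and 0 lower, against 4.22% and 2.95% of all genes. They were Fhod3 with 1.62 (0.837 to 3.17) and Xirp1, an actin-binding protein of the intercalated disc, with 1.51 (0.845 to 2.72). In basal only were 5 of 19 genes, against 27.4% of all genes, the highest being Lmod3 with 24 reads, Xirp2 with 20 and, level with each other, Nebl and Tnni3k with 19. In Des-/-, 1 of 11 was lower in swim, Nrap with 0.639 (0.329 to 1.19), and 0 higher, against 2.97% and 4.39% of all genes. There 7 of 18 had a peak in basal only, against 32.3% of all genes, led by Actn2 with 29 reads, Mybpc3 and Xirp2 with 19. The medians were 1.04 and 0.948.

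The 5 genes whose acetylated lengths over the 4 lists were most like the median of the members were Lalba, Myo1d, Nt5m, Popdc2 and B230312C02Rik, of 10927 compared. Distances, on the log2 scale of length plus 1, ran from 0.343 to 0.452. The members' median was 3131 bp, 2590 bp, 2408 bp and 695 bp. Lalba had 3601, 3021, 2215 and 642 bp, and Popdc2, a membrane protein of heart muscle, had 2651, 2065, 2321 and 719 bp.

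The lamin A/C lists were short, with 188 peaks in basal Des+/+, 831 in basal Des-/-, 635 in swim Des+/+ and 536 in swim Des-/-, and a minimum height of 8 reads. Thin filament genes had 0, 3, 7 and 0 of these peaks. A count of 0 allows a share of up to 1.60% of the peaks in basal Des+/+ and 0.560% in swim Des-/-. The listed peaks were thus in Des-/- in basal conditions and in Des+/+ after swimming stress. The basal Des-/- share, 3 of 831, lies under the 1.60% that 0 of 188 allows, so the basal lists do not differ beyond counting. The swim Des+/+ share, 7 of 635, lies above the 0.560% that 0 of 536 allows. Of those 7 peaks 4 were at Actc1, so they are not independent counts. With 1 library each, a difference between the swim lists was not tested. All were low, between 8 and 13 reads, with an input of 1 to 4 reads.

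In swim Des+/+, 4 of the 7 peaks were at Actc1, with 12, 12, 10 and 11 reads and inputs of 4, 3, 2 and 2. They stood over the exons of the 3' part of the gene and its 3' untranslated region. Tnnt2 had a peak of 12 reads, Tpm1 one of 10 and Lmod2 one of 8, each annotated as 3' untranslated region. The interval of the lowest, 8 reads, was 3.45 to 15.8.

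In basal Des-/- the peaks were at Actc1 with 13 reads (6.92 to 22.2), Tnnt2 with 10 (4.80 to 18.4) and Tnnc1 with 9 (4.12 to 17.1), and all 3 were annotated as 3' untranslated region. Between the libraries heights do not differ beyond their intervals. The Actc1 and Tnnt2 sites were shared by basal Des-/- and swim Des+/+, 2 of 3 and 2 of 7 peaks. Over all lamin A/C peaks, 90.3% of basal Des-/- peaks had no partner in swim Des+/+ and 87.6% had none the other way.

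All 3 peaks of basal Des-/- and all 7 of swim Des+/+ overlapped an exon of the gene, and 6 of the 7 lay mostly in exons. Reads were not analysed here, so whether spliced sequence such as cDNA contributed to these exon peaks was not tested. Over all lamin A/C peaks the share annotated to an exon or untranslated region was 13.7% in basal Des-/- and 24.4% in swim Des+/+, against 10.1% and 9.14% in basal Des+/+ and swim Des-/-. None of the 10 overlapped an H3K27Ac peak of the same group. The share over all lamin A/C peaks was not computed, so this count has no background. None of the 7 had a partner in swim Des-/-, where 92.3% of all swim Des+/+ peaks had none, and none of the 3 had one in basal Des+/+, where 96.5% had none. These shares are near the background. Of the 31 other genes listed only Actb had lamin A/C peaks, 1 in basal Des-/- and 2 in swim Des+/+.

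**Figure D5:**
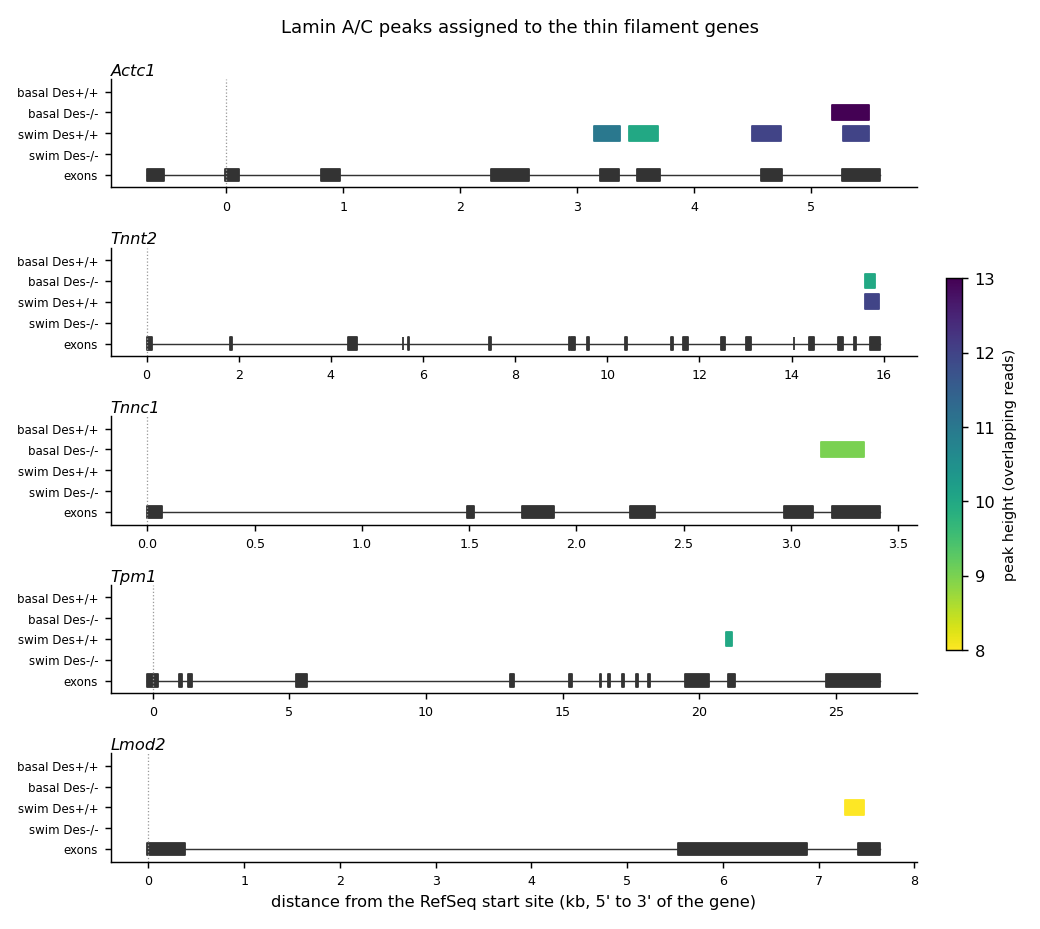
Position of each lamin A/C peak along 5 thin filament genes in kb from the RefSeq start site (dotted line), with 1 row per library, exons in dark grey and colour for height in overlapping reads from 8 to 13. The 10 peaks sit in the basal Des-/- and swim Des+/+ rows toward the 3' end, and the other rows are empty.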

How the data were processed

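Chromatin of adult cardiomyocytes was immunoprecipitated for H3K27Ac or lamin A/C and sequenced. Per the labels and the methods, single-end reads were aligned by the authors with Bowtie2 2.4.4 to GRCm38 (mm10), sorted with SAMtools 1.13, and peaks were called per library against its input with the authors' own script and annotated with ChIPseeker 1.36.0. The deposited peak and input heights are a coverage signal of overlapping reads, with minimums of 15 (H3K27Ac) and 8 (lamin A/C). The deposited distance to the nearest start is a score in bp. The lists also hold the authors' fold change, p-value and false discovery rate, which were not used. Whether duplicates were removed is not given in the sources used here.

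Groups came from the labels, 1 library each, so sizes were compared without a test. Peaks within 3000 bp of a start were promoter peaks, and peaks overlapping by 1 bp were partners. Ratios have exact conditional binomial intervals, divided by the same median. The ratio and overlap steps were checked on simulated data. Python 3.11.15, NumPy 2.4.6, pandas 2.3.3, SciPy 1.17.1 and Matplotlib 3.10.9 were used. Of the 31 other genes, those named were the 3 highest in basal Des+/+ and those with a lamin A/C peak. Per comparison, up to 3 by size of scaled ratio past 1.5-fold and up to 3 with a peak in 1 list only were added. The skeletal genes without a peak, and Tnni3k where level with Nebl, were named after their values were seen. The members, lists and tests were chosen with earlier results of these data known. The order of libraries in lists of values is basal Des+/+, basal Des-/-, swim Des+/+, swim Des-/-.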

Additional observations from a re-analysis of the deposited data

Results flagged for a closer look

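The genotype ratio of acetylated length was slightly above 1 in basal conditions and below 1 after swimming stress at 2 genes. For Tnnc1 the scaled ratio of Des-/- to Des+/+ was 1.05 in basal and 0.399 in swim, so the second was 0.378 of the first. For Tpm1 the ratios were 1.13 and 0.358, and the second was 0.316 of the first. The other genes compared were already below 1 in basal and were also lower in swim. Their ratios were 0.777 and 0.103 for Lmod2, 0.744 and 0.396 for Tnnt2, and 0.827 and 0.613 for Tnni3. A fall of the ratio was therefore not particular to Tnnc1 and Tpm1. Among all genes, the basal ratios of Tnnc1 and Tpm1 were at percentiles 58.2 and 68.3, near the middle. The swim ratios of Tnnc1 and Tpm1 were at percentiles 3.48 and 2.57. How many of all genes shift in this way was not counted. With 1 library per group the difference was not tested at any of these genes.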

How the results depend on the processing

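Of the alternative values of counts and shares, 85 stayed within 1.5 times the reported count or inside the interval of a share and 35 moved, and 88 of 88 alternative height ratios of single genes stayed inside their counting intervals. Those intervals are wide and several alternatives only rescale the same heights, so staying inside does not show that a call holds. In swim against basal Des+/+, Actc1 and Tnnc1 stayed inside at 1.17 and 1.16 unscaled, where neither is called. No called ratio turned direction. A minimum height of 30 reads left 8, 4, 2 and 0 thin filament H3K27Ac peaks, and 20 reads left 8 in swim Des+/+ and 4 in swim Des-/-. Equal numbers of the highest peaks (10407 per list) left 10 in basal Des-/-, and a height of at least 5 times input plus 1 left 5 in swim Des-/-. Unscaled, or with input subtracted, 1 gene was lower in height in swim Des-/- against swim Des+/+. Unscaled, or scaled by list medians, 0 genes were higher in swim Des+/+ against basal and 3 were lower in Des-/-, where subtracting input left 0. In length, the lower calls at 20 reads became 2 of 6 (basal genotypes) and 2 of 3 (swim genotypes). From basal to swim they became 3 of 6 in Des+/+ and 1 of 3 in Des-/-. With equal numbers they became 2 in the basal genotypes. By the input rule added after the data were seen, they became 1 in the basal genotypes and 1 in Des+/+. Unpartnered peaks above the larger median were 0 and 0 (basal genotypes), 2 (swim Des+/+ against swim Des-/-), 0 and 0 (Des+/+ conditions) and 3 (basal Des-/- against swim). With equal numbers they were 0 for basal Des-/- against Des+/+ and 1 for swim Des-/- against either list. They were 1 for basal Des+/+ against swim and, of 10 kept, 3 for basal Des-/- against swim. Equal numbers of the highest lamin A/C peaks (188) left 1 in basal Des-/- and 4 in swim Des+/+. The fewer peaks follow from the construction of the height limits, and for the rest the cause was not tested. No paired analysis was possible because each group had 1 library. For the same reason no replicate could be left out.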
